A study of Mus musculus with 8 samples.

Results

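The complement system is a cascade of plasma proteins that marks microbes and damaged cells for removal. Of 33 complement genes listed as components, lectin-pathway members, regulators or receptors, 24 were represented among the 8251 genes that the platform annotation tied to a probe set of their own. They had 32 probe sets out of 12422 that are not array controls. A probe set was taken only where its annotation gave a single gene symbol. Not analysed here for lack of such a probe set were C1s1, C3, C4a, C4b, C6, C7, C8a, C8b and Cfd. A further 3 probe sets carried several symbols, C4a with C4b or C1rb with C1ra, and were not used.

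The samples were livers of 8 female Ames dwarf mice, homozygous for the df allele (df/df), that ate a standard pelleted diet ad libitum and were killed at an age of 24 to 26 months. Because a pituitary transcription factor is mutated, these dwarfs make no prolactin, thyroid-stimulating hormone or growth hormone. Total RNA of each liver was hybridised to an Affymetrix mouse U74Av2 array, and the livers are numbered here by the number in their titles. All 8 samples belonged to 1 group, so differences between individual livers were the only contrast. No normal mouse and no other diet was analysed here, and every gene was therefore measured in the hormone-deficient state.

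Complement is started along 3 routes. In the classical route C1q, assembled from A, B and C chains, binds antibody or dying cells and switches on the proteases C1r and C1s. In the lectin route mannose-binding lectins do the same through the MASP proteases, and the alternative route amplifies the response through factor B and properdin. All routes cut C3 and then C5, and the later components form a pore in the target membrane. The liver is the main source of most of these proteins, and its hepatocytes secrete them into blood. C1q is an exception, since its chains are made chiefly by macrophages, of which Kupffer cells are the resident type of the liver. Properdin is also made by white blood cells.

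Signals are given on the linear intensity scale of the deposited table. The brightness of a probe set depends on its probes as well as on its transcript, so signals were compared between livers and never between genes. The highest signal divided by the lowest over the 8 livers is called the range. Variability was tested for the 6211 brighter probe sets, those whose mean log2 signal exceeded a cutoff equal to the median over the non-control ones (a signal of 162). The typical-variance test set the variance of a probe set over the livers against the typical variance of probe sets of like signal (chi-square with 7 degrees of freedom, one-sided, Benjamini-Hochberg adjustment, threshold 0.05). Its calls are probe sets that varied more than most others of like signal, for any reason.

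The scale of the arrays was nearly equal. Their trimmed means lay within 0.009% of each other, and their median intensities lay between 156 (liver 3) and 181 (liver 8). Livers 8 and 4 had the highest medians, at 181 and 178. Spike-in controls averaged 10.70 to 10.88 on the log2 scale on arrays 1 to 4 and 10.18 to 10.46 on arrays 5 to 8, and the labels name no batch. The 3′ over 5′ signal ratios of control transcripts, a sign of RNA quality, were 0.806 to 0.969 for Gapdh and 1.24 to 1.74 for actin. That of pyruvate carboxylase varied more, from 2.93 in liver 6 to 8.81 in liver 2, with 6.04 in liver 3. The hepatocyte markers Alb, Ttr, Apoa1, Ahsg, Tat, Cps1, Apob and Tdo2 were all on the array, and all 8 passed the filter. Their summed signal lay between 129055 (liver 6) and 186648 (liver 3), with liver 4 next to lowest. Of the 8, 2 were called (25%, against 10.3% of all tested genes), Apob with a range of 5.05-fold and Tat with 2.30-fold.

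Promoters are shown for 4 of the genes with the most variable signals, namely the C1q B and C chains, properdin and C9, so that macrophage-made and hepatocyte-made members can be read side by side. Each line gives the 250 bases before the transcription start from RefSeq (GRCm38.p6), 5′ to 3′ on the strand of the gene, and the capitals mark the motif matches named after the sequences. A promoter was found in that table for 17 of the 24 genes.
C1qb, chr4:136886201-136886450, minus strand: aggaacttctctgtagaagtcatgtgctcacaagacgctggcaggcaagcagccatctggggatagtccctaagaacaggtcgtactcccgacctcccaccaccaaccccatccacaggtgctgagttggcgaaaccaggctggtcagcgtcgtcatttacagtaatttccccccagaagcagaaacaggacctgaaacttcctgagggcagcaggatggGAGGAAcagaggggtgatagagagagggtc
C1qc, chr4:136892915-136893164, minus strand: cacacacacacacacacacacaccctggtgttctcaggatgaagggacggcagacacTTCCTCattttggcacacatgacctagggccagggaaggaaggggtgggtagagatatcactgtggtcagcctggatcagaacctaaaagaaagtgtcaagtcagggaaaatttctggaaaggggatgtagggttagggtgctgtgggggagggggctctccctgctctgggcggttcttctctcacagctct
Cfp, chrX:20931556-20931805, minus strand: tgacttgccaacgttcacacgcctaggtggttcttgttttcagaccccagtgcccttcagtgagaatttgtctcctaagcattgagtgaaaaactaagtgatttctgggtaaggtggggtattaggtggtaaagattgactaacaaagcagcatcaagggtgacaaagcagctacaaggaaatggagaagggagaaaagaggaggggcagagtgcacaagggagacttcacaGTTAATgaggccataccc
C9, chr15:6445096-6445345, plus strand: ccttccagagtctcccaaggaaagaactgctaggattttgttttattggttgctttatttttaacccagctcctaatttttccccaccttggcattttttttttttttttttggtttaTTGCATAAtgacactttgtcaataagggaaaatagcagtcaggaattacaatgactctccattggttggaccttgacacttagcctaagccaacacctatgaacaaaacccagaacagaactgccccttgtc

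These windows were searched on both strands for 6 short motifs. GAGGAA, the core bound by the macrophage factor PU.1 and other ETS proteins, occurred at positions -30 to -25 of C1qb and, on the reverse strand, at -193 to -188 of C1qc, counted from the start. It occurred in 23.3% of all 32851 promoter windows of the same length, so a match is common. TTGCNNAA, a C/EBP motif, occurred at -132 to -125 of C9 and in 9.56% of all windows. GTTAAT, a core of the hepatocyte factor HNF-1, occurred at -18 to -13 of Cfp and in 6.43% of all windows. The STAT motif TTCNNNGAA (7.02% of all windows), the core of the interferon-stimulated response element (2.98%) and the TATA motif TATAAA (12.4%) had no match in these 4 windows. The matches do not overlap one another, and a match is a description of letters, not a bound site.

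The genes of C1q, properdin and C9 had the widest ranges of the tested complement genes. All of C1qa, C1qb, C1qc and Cfp were highest in liver 4, next highest in liver 8 and lowest in liver 7, with liver 3 next to lowest, and their ranges were 3.16-fold to 4.87-fold. Of the hepatocyte-made genes only C9 was called by its brightest probe set. In all, 6 of 25 tested complement probe sets (24%) were called, against 11.3% of all 6211 tested probe sets. With arrays scaled to the same median, which removes the higher medians of livers 4 and 8, 5 of 25 were called, against 9.66% of all, and only C1ra was lost. By the brightest probe set of each gene, 5 of 21 tested genes (23.8%) were called, against 10.3% of all 4819 tested genes. With whole-liver RNA, fewer cells of a type and less RNA per cell cannot be told apart.

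**Figure D1:**
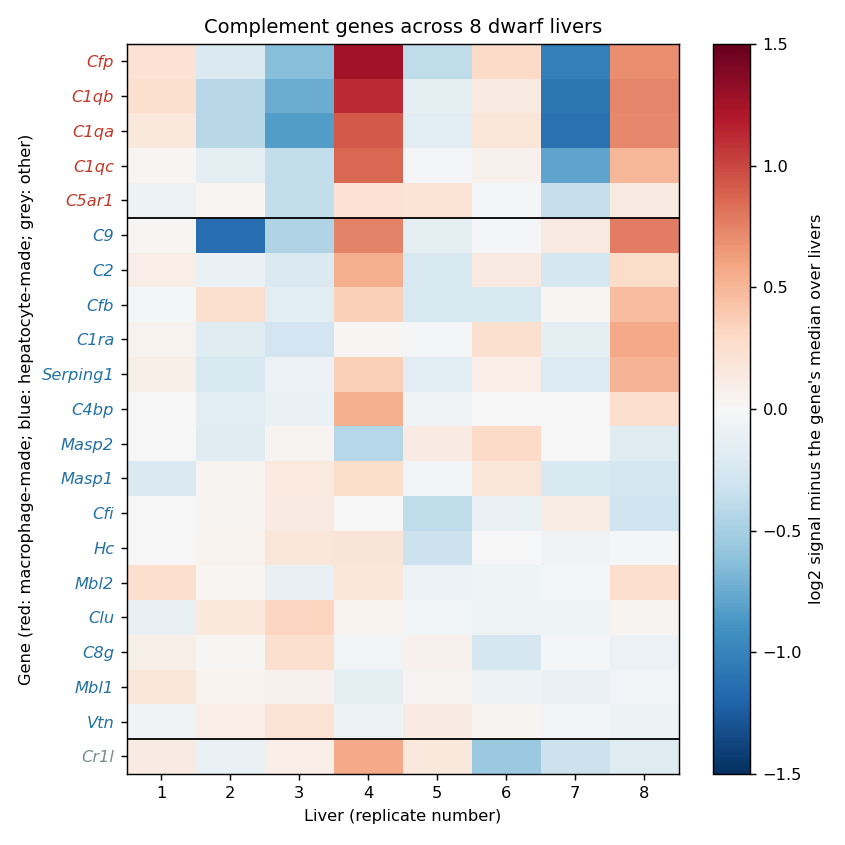
Colour gives the log2 signal of the 21 tested complement genes (rows, each by its brightest probe set) in each of the 8 livers (columns), minus the median of the gene over livers. Rows are grouped into macrophage-made, hepatocyte-made and other genes. The top 4 rows are red in livers 4 and 8 and blue in livers 3 and 7, while most hepatocyte-made rows stay near the median except C9.

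C1qa, the A chain of C1q, had signals of 613 at the lowest, 1343 at the median and 2525 at the highest liver. The highest was liver 4, followed by liver 8 at 2202, and the lowest were liver 7 and then liver 3 at 745. The SD of its log2 signals was 0.71, against a typical SD of 0.22 at that signal (adjusted p = 5.12e-11 in the typical-variance test, n = 8).

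C1qb, the B chain, had signals of 300.1, 640.2 and 1384 (lowest, median, highest) on its brighter probe set. Livers 4 and 8 were again the top ones and livers 7 and 3 the bottom ones, with an SD of 0.73 on the log2 scale (adjusted p = 1.95e-10 in the typical-variance test). Its second probe set did not follow this order. It gave 268 at the lowest, 394 at the median and 564 at the highest, with liver 8 highest, liver 3 lowest and liver 4 next to lowest, and was not called (adjusted p = 0.409 in the same test). The letter i in the name of that probe set marks one that is short of probes, and the C1qb values elsewhere in the text come from the brighter one.

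C1qc, the C chain, had signals of 892, 1550 and 2823 (lowest, median, highest). The order of the livers was that of C1qa without exception, from liver 4 through 8, 6, 1, 5, 2 and 3 to liver 7. Its SD was 0.51 on the log2 scale (adjusted p = 0.000125 in the typical-variance test).

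Cfp encodes properdin, which stabilises the alternative-pathway convertase. It had signals of 199 at the lowest, 410.0 at the median and 967 at the highest liver, the widest range of the 21 tested genes at 4.87-fold. Liver 4 was highest, liver 8 followed at 657, and livers 3 and 7 were lowest at 261 and 199. Its SD was 0.74 on the log2 scale (adjusted p = 6.01e-09 in the typical-variance test).

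The receptors of the complement fragments were the remaining myeloid genes. C5ar1, the receptor of C5a on myeloid cells, ranged from 287 (liver 3) to 429 (liver 4) with a median of 369.5, and was not called. C3ar1, the receptor of C3a, ranged from 67.5 to 201 and lay below the filter, so it was not tested. Its highest livers were nevertheless 4 and 8 and its lowest liver was 3.

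The 5 tested genes assigned to macrophages and other myeloid cells, C1qa, C1qb, C1qc, Cfp and C5ar1, had similar but not identical orders of livers. Of these, 4 were called (80%, against 10.3% of all tested genes). Their median range was 4.12-fold, against 1.61-fold over all tested genes. The median Pearson r over their 10 pairs was 0.97, against 0.01 over all tested genes. Liver 4 was highest for 5 of 5, against 17.7% of all tested genes. Livers 4 and 8 were the top pair for 4 of 5, against 9.73%, and livers 3 and 7 the bottom pair for 5 of 5, against 3.84%. The assignment to a cell source is textbook knowledge, not a measurement on these livers.

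**Figure D2:**
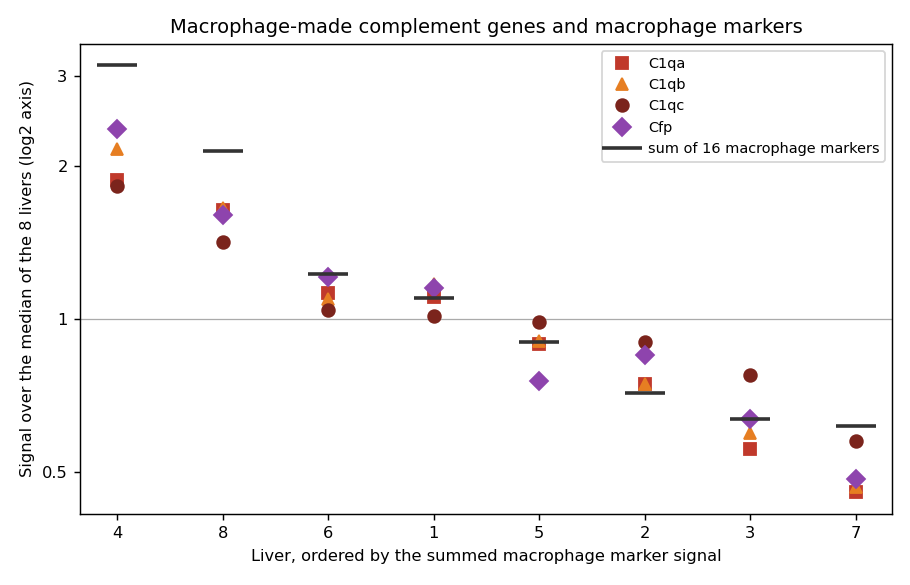
Points give the signal of C1qa, C1qb, C1qc and Cfp in each liver over the median of that gene (log2 vertical axis), and dashes give the same for the summed signal of 16 macrophage markers. Livers run along the horizontal axis from the highest to the lowest summed marker signal, and C1qa and C1qc fall along that order without exception. C1qb has liver 1 above liver 6, Cfp has liver 2 above liver 5, and the dash of liver 4 lies above all points.

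Macrophage markers moved with these genes. All 16 listed markers (Clec4f, Cd68, Adgre1, Lyz2, Mpeg1, Csf1r, Cd5l, Marco, Cybb, Laptm5, Fcgr1, Msr1, Ctss, Aif1, Tyrobp and Fcer1g) were on the array and none lay at the floor in every liver. Their summed signal was 27469 in liver 4, 18676 in liver 8, 5550 in liver 3 and 5368 in liver 7, a range of 5.12-fold. That order of the 8 livers is the order of C1qa and of C1qc. Bright markers weigh most in this sum, such as Ctss, Mpeg1 and Lyz2 with 6113, 5673 and 3563 in liver 4. Ctss had the order of the sum, but other markers differed. Mpeg1 was lowest in liver 3, and Clec4f had liver 6 second. Liver 4 was highest for 15 of the 16, against 17.7% of all tested genes. Of 12 tested markers 11 were called, against 10.3% of all tested genes. Clec4f, a marker of resident Kupffer cells, was the one tested marker not called, with signals of 986 to 1817. The part of these cells in the C1q and properdin values was not tested.

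Some markers of other cell types also had livers 4 and 8 on top. Among 6 stellate and fibroblast markers, whose summed signal was highest in liver 4, 2 of 4 tested were called, against 10.3% of all tested genes. These were the collagen genes Col1a1, with 806 in liver 4, 564 in liver 8 and 152.5 in liver 2, and Col3a1, with 454 in liver 4, 273 in liver 8 and 106 in liver 3 (adjusted p = 8.35e-10 and 0.00188 in the typical-variance test). Both collagen genes thus shared their top livers with C1q, though not their lowest, and liver 3, the lowest for Col3a1, was next to lowest for C1q. The tested markers that were not called differed. Des was lowest in liver 4 (139), and Dcn was highest in liver 3 (5942), followed by liver 4 (5727).

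Of 7 neutrophil markers, 3 had livers 4 and 8 on top, namely S100a8 (369 and 247), S100a9 (231 and 212) and Ngp (50.8 and 49.6), all below the filter. Their list summed highest in liver 6, where its brightest probe set, that of Csf3r, reached 1322. The 6 T-cell markers summed to 554.5 in liver 4 and 238 in liver 5. Only Cd3e among them, below the filter, was highest in liver 4, with 224 there and 119 in liver 8. Cd4, Cd8a and Cd2 were highest in liver 2, and Cd3d and Cd3g in liver 8. The sum of 6 endothelial markers was highest in liver 5 and that of 6 B-cell and plasma-cell markers in liver 2. Livers 3 and 7, the lowest for C1q, were also the lowest for the endothelial sum and for the neutrophil sum. They were the bottom pair for 2 of 4 tested endothelial markers, Cdh5 and Ramp2, against 3.84% of all tested genes. Of the tested neutrophil, T-cell, endothelial and B-cell markers, 0 of 13 were called by the typical-variance test, against 10.3% of all tested genes. Among 4 adipocyte markers the 1 tested, Lep, was called (adjusted p = 0.0248 in the same test), with livers 8 and 6 on top, and none of 3 cholangiocyte markers was tested. The part of these cells in the complement values was not tested.

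The complement genes of hepatocytes were called about as often as genes at large. Of the 15 tested, 1 was called (6.67%), against 10.3% of all tested genes. Their median range was 1.44-fold against 1.61-fold over all tested genes, and the median r over their 105 pairs was -0.04 against 0.01 over all tested genes. Their summed signal ranged only 1.18-fold, with 74944 in liver 4 and 63735 in liver 5. Correlations between the 15 hepatocyte-made and the 5 macrophage-made genes had a median of 0.29 over 75 pairs, from -0.74 to 0.98, which is a description over 8 shared arrays.

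**Figure D3:**
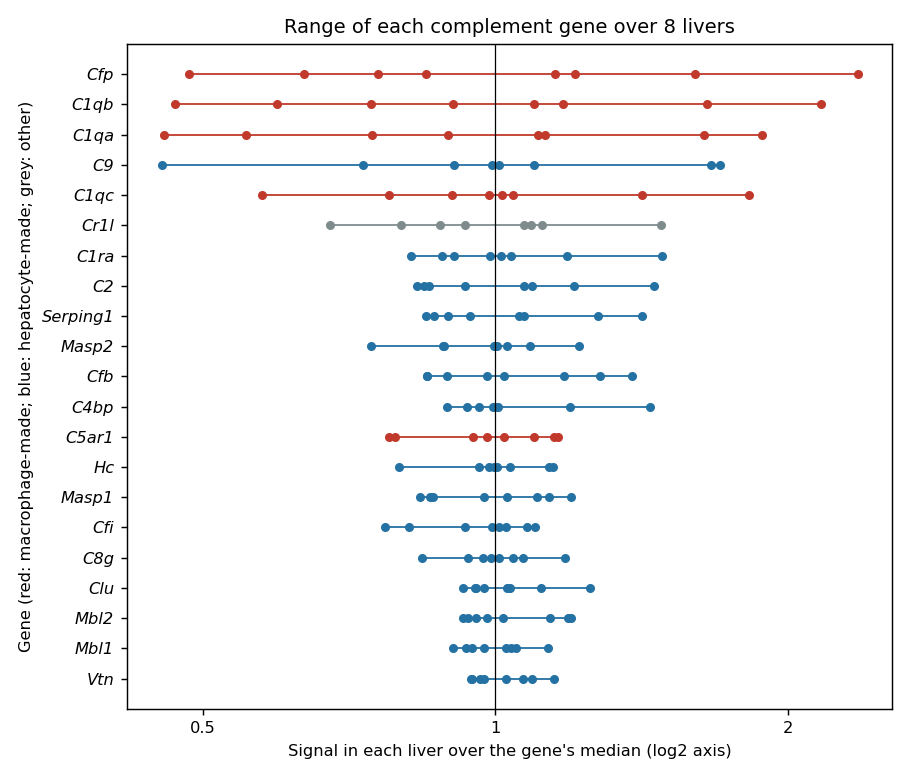
Each row shows the 8 livers of 1 complement gene as points, as the signal over the median of that gene (log2 horizontal axis), joined by a line from lowest to highest. The rows run from the widest range at the top, Cfp at 4.87-fold, to the narrowest at the bottom, Vtn at 1.22-fold.

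C9 was the hepatocyte-made exception. C9 is the component that polymerises into the membrane pore. It had signals of 888 at the lowest, 1956 at the median and 3332 at the highest liver, a range of 3.75-fold. The top livers were 8 and 4, as for C1q, but the lowest was liver 2 at 888, ahead of liver 3 at 1431. Its SD was 0.62 on the log2 scale (adjusted p = 9.20e-08 in the typical-variance test). Without liver 2 the range was 2.33-fold. Livers 2 and 3, the lowest for C9, also had the highest pyruvate carboxylase 3′ over 5′ ratios, 8.81 and 6.04, and the part of RNA quality in this result was not tested.

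The other terminal components had narrow ranges and were not called. Hc, which encodes C5, ranged from 3038 (liver 5) to 4366 (liver 4). C8g, the gamma chain of C8, had signals of 6307, 7512 and 8850 (lowest, median, highest) on its brighter probe set, with liver 3 highest and liver 6 lowest. Its second probe set gave 4.5 to 55.4 with a median of 15.7, close to the floor, and was not tested.

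The classical-pathway proteases of the liver gave mixed values. C1ra, which encodes the protease C1r, had signals of 1193 (liver 3), 1456 at the median and 2159 (liver 8) on its brighter probe set, and was not called (adjusted p = 0.634 in the typical-variance test). Its second probe set gave 420 (liver 5), 611 at the median and 1038 (liver 4), and was called (adjusted p = 0.00881 in the same test). The letters f and i in their names mark probes that related transcripts may share or a short probe set, and C1rb is a near copy of C1ra, so C1ra values are uncertain. Without liver 4, or with arrays scaled to the same median, C1ra was not called (adjusted p = 0.172 and 0.137).

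C2, the protease that joins C4b in the classical convertase, had signals of 1824 (liver 7), 2198 at the median and 3199 (liver 4). Liver 8 followed liver 4 at 2648, and the gene was not called (adjusted p = 0.491 in the typical-variance test). A second C2 probe set gave 18.1 to 40.3 with a median of 32.5 and was too dim to test. Cfb, its alternative-pathway counterpart, had signals of 152 (livers 5 and 6), 179 at the median and 247 (liver 8) on its brighter probe set. The other Cfb probe set gave 60.8 to 186 with a median of 126 and was not tested. Both Cfb probe sets had liver 8 highest, but their orders otherwise differed. The brighter had liver 4 second, and the other had liver 3 second and liver 7 lowest. Their ranges were 1.62-fold and 3.06-fold, so Cfb values depend on the probe set.

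The lectin-pathway genes had ranges of 1.25-fold to 1.64-fold, against a median of 1.61-fold over all tested genes. Mbl1, which encodes mannose-binding lectin A, had signals of 712 (liver 4), 786.5 at the median and 890 (liver 1). Mbl2, for mannose-binding lectin C, had 2676 (liver 3), 2890 at the median and 3453 (liver 1). Both were highest in liver 1, and 0 of 4 lectin-pathway genes were called, against 10.3% of all tested genes, too few genes to set them apart.

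Masp1, the gene of a lectin-pathway protease, had signals of 704 (liver 8), 842 at the median and 1008 (liver 4). Masp2, whose protease cuts C4 and C2, had 1136 (liver 4), 1525 at the median and 1859 (liver 6). Liver 4 was therefore the highest for one of these genes and the lowest for the other.

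Among regulators in plasma, Vtn, which encodes vitronectin and blocks insertion of the pore, had the smallest SD of all tested members, 0.11 on the log2 scale. Its signals were 10584 (liver 8), 11206 at the median and 12861 (liver 3). Mbl1 was next, also with an SD of 0.11, and C8g followed at 0.14. These 3 genes had ranges of 1.22-fold, 1.25-fold and 1.40-fold.

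Clu encodes clusterin, another inhibitor of the pore. Its probe sets gave 8035 to 10846 with a median of 8677, and 4166 to 5528 with a median of 4592. They named different livers as highest, 3 and 2. Cfi, the protease that destroys C3b and C4b, ranged from 7076 (liver 5) to 10088 (liver 3).

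Serping1, the gene of C1 inhibitor, ranged from 7898 (liver 2) to 13190 (liver 8), with liver 4 second at 11884. C4bp, which speeds decay of the classical convertase, ranged from 5205 (liver 2) to 8410 (liver 4), with liver 8 second at 6955. Both had livers 4 and 8 on top, as C1q had, and neither was called. With quantile normalization Serping1 was called (adjusted p = 0.0143 in the typical-variance test). With arrays scaled to the same median neither gene was called. The variance of Serping1 was then 0.777 of the typical variance, against 1.72 before. That of C4bp was 0.490, against 1.11 before.

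Cr1l encodes Crry, the membrane regulator of complement on rodent cells. Its brighter probe set gave 325 (liver 6), 481 at the median and 712 (liver 4), and its other 301 (liver 5), 363 at the median and 505 (liver 4). Both put liver 4 highest and neither was called. Cr2, the complement receptor of B cells, exceeded the floor of 11.2 in 2 of 8 livers, reaching 16.9. C1qbp, a mitochondrial protein first found through its binding of C1q, gave 44.3 to 114 with a median of 73.0 and 20.1 to 43.5 with a median of 30.1 on its probe sets, both below the filter.

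**Figure D4:**
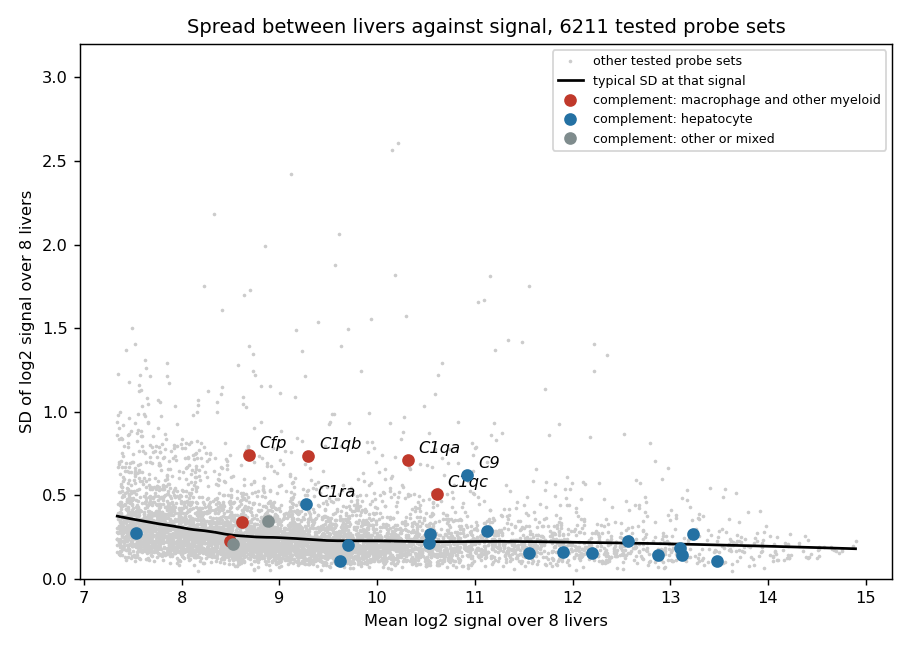
The SD of log2 signal over the 8 livers is plotted against the mean log2 signal for all 6211 tested probe sets (grey), with the typical SD as a line. Coloured points are the 25 tested complement probe sets by cell source, and the labelled ones are the 6 called. Cfp, C1qa, C1qb, C9, C1qc and C1ra stand above the line, and most hepatocyte-made points lie near or below it.

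Over all 21 tested genes, liver 4 was the highest for 10, against 17.7% of all tested genes. Livers 4 and 8 were the top pair for 9, against 9.73% of all tested genes, and the bottom pair for 2, against 11.5%. Livers 3 and 7 were the bottom pair for 5, against 3.84%, and these 5 were the macrophage-made genes. These shares describe the members, which were not drawn at random and share the same 8 arrays.

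The C1q genes lie next to each other on chromosome 4 in the order C1qb, C1qc, C1qa, and their signals tracked each other closely. C1qa and C1qb had a Pearson r of 0.99 and a Spearman rho of 0.98 over the 8 livers (exact permutation test over 40320 pairings, two-sided, adjusted p = 9.92e-05 for r and 0.000794 for rho over 6 pairs). Without livers 4 and 7, the farthest from the median, r was 0.995. C1qa and C1qc had an r of 0.97 and a rho of 1 (exact permutation test, adjusted p = 9.92e-05 and 0.000298), with an r of 0.97 without the same livers. The raw p of 2.48e-05 for that r is the smallest these pairings can give.

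C1qb and C1qc had an r of 0.98 and a rho of 0.98 (exact permutation test, adjusted p = 9.92e-05 and 0.000794), and an r of 0.96 without livers 4 and 7. With each gene centred within arrays 1 to 4 and within arrays 5 to 8, the r values of these pairs were 0.997, 0.978 and 0.982. The signal of C1qb divided by that of C1qa varied little, from 0.464 to 0.548 with a coefficient of variation of 5.41%. That of C1qa divided by C1qc varied more, from 0.619 to 1.005 with 17.1%. Ratios of signals carry the brightness of both probe sets and are not ratios of transcripts.

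**Figure D5:**
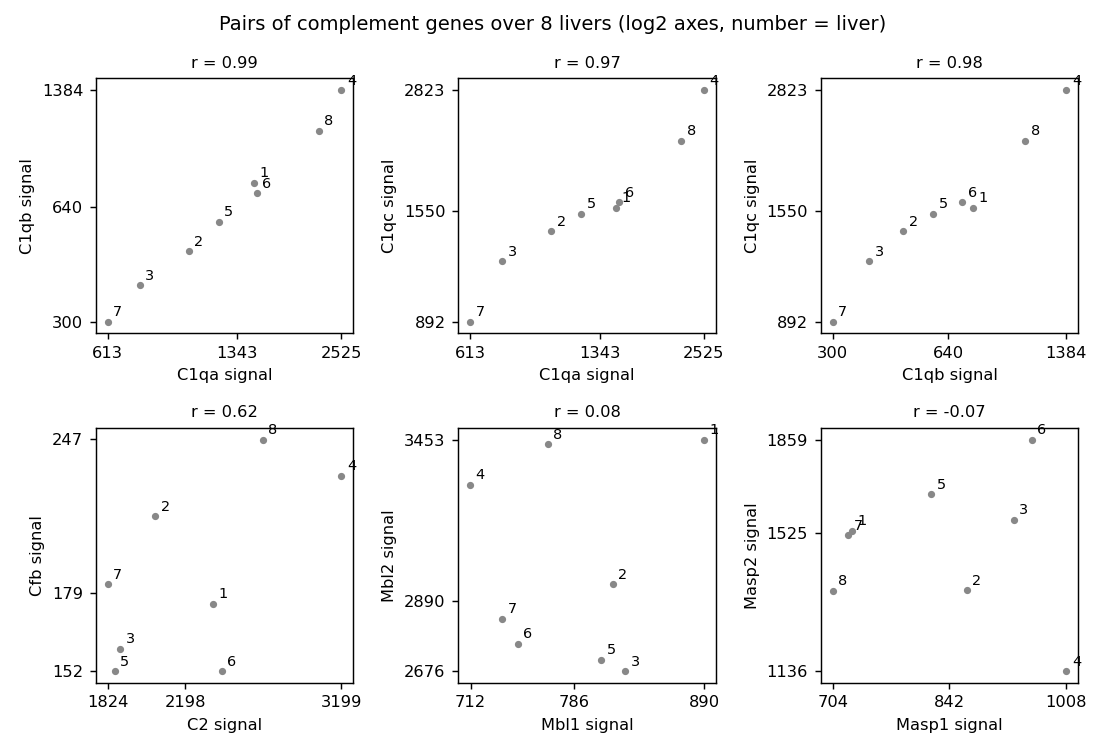
Each panel plots the signal of 1 complement gene against another over the 8 livers, which are numbered (log2 axes). In the top row the C1q pairs form tight lines from liver 7 to liver 4, with r of 0.99, 0.97 and 0.98. In the bottom row C2 with Cfb, Mbl1 with Mbl2 and Masp1 with Masp2 scatter, with r of 0.62, 0.08 and -0.07.

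The other pairs did not pass. C2 and Cfb, neighbours on chromosome 17 whose products are homologous convertase proteases, had an r of 0.62 and a rho of 0.48 (exact permutation test, adjusted p = 0.151 and 0.347), and an r of -0.07 without livers 4 and 8. Mbl1 and Mbl2 had an r of 0.08 and a rho of 0 (exact permutation test, adjusted p = 0.859 and 1). Masp1 and Masp2 had an r of -0.07 and a rho of 0.14 (exact permutation test, adjusted p = 0.859 and 0.902). Without the 2 livers farthest from the median, these r values were -0.23 and 0.39. A p above the threshold does not show that the genes of a pair vary independently. Of 11 listed pairs, 5 were not run because a gene had no probe set of its own.

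Further complement genes outside the list, receptors and inhibitors on cells among them, were on the array for 12 of 24. Of 6 tested, 1 was called (16.7%, against 10.3% of all tested genes). This was Itgax, the alpha chain of complement receptor 4 on myeloid cells, with 149 at the lowest, 275 at the median and 527 at the highest liver (adjusted p = 0.000779 in the typical-variance test). Its top livers were 8 and 4. Itgb2, the beta chain of the complement receptors, lay below the filter with 26.5 to 644 and was highest in livers 4 and 8. The other tested genes had other orders. Cd59a, Cd59b and Cpn1 were lowest in liver 4, and Cfhr2 was highest in liver 2. Fcna ranged 1.67-fold, from 167 (liver 7) to 279.5 (liver 6), with liver 8 next to lowest. These further genes were not assigned a cell source, so the macrophage-made group holds listed members only.

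The calls depend on the test and partly on livers 4 and 8. The limma variance test, which allows variances to differ between genes, called 0 of the 25 complement probe sets and 0% of all 6211, with a smallest adjusted p of 0.412 among the members. At an unadjusted p under 0.05, it gave 5 of the 25 (20%), against 6.84% of all. An earlier run of this test, with its prior lowered for outlying probe sets, gave 0 at that threshold. Without livers 4 and 8, 4 of 25 were called, against 8.10% of all tested probe sets, and C1qc and C1ra were lost (adjusted p = 0.211 and 0.857 in the typical-variance test). The ranges of C1qa, C1qb, C1qc, Cfp and C9 without these livers were 2.47-fold, 2.50-fold, 1.81-fold, 2.49-fold and 2.42-fold.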

How the data were processed

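The deposited table gave 1 linear intensity per probe set and array. Per the labels, a Hewlett-Packard GeneArray instrument scanned the arrays. How images became intensities, and with which scaling, is not given in the sources used here. Trimmed means were nearly equal, so the intensities were taken as already scaled. The number of arrays, 8, limits precision, and the labels do not describe litters or batches.

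Values under the 10th percentile, 11.2, were set to it before log2. Probe sets were named from the platform annotation, and all 32 Entrez identifiers of members were found in the RefSeq table (GRCm38.p6), which changed 0 symbols. A gene was represented by its brightest probe set. The typical variance came from a loess fit (span 0.3) in R 4.3.3. The limma 3.58.1 variance test used the trended robust prior with 4.9 degrees of freedom for every probe set. This was chosen after a first run, with the prior lowered for outlying probe sets, had also given 0 calls. Both tests were run on simulated data, in which the typical-variance test also called unraised probe sets where variances were unequal. Pairs were tested in Python 3.11.15 with numpy 2.4.6.

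Values were named for called members, members of pairs, the 3 steadiest and those with several probe sets, with ranges for the rest. Members, lists, pairs and tests were chosen with earlier results of these data known, so patterns already seen there are not independent support. The alternatives were scaling, floor, filter, probe set choice, array centring and left-out livers.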

Additional observations from a re-analysis of the deposited data

How the results depend on the processing

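The count of called complement probe sets was 6 with the typical-variance test, 0 with the limma variance test and 0 with its prior lowered for outlying probe sets. The lowered prior was run first, and the prior used for every probe set was chosen after that run had been seen. The smallest adjusted p over all probe sets was 0.0597 in the limma variance test and 0.992 with its prior lowered. At an unadjusted p under 0.05, these versions gave 425 and 0 probe sets. The limma test asks more of a probe set, since it allows variances to differ between genes. Under the other alternatives the count was 4 (without livers 4 and 8) to 7 (quantile normalization), and 5 to 6 when single livers were left out. The 3 C1q pairs passed under every alternative run, single livers left out included. The median range of the tested genes was 1.62-fold, and 1.45-fold to 1.62-fold with single livers left out. The variance calls are one-sided and have no direction that could change. The r of the 3 C1q pairs stayed positive under every alternative run. The r of the pairs that did not pass changed sign under some alternatives: C2 and Cfb had -0.07 without livers 4 and 8, Mbl1 and Mbl2 had -0.47 to 0.34 and Masp1 and Masp2 -0.43 to 0.55 with single livers left out. With all probe sets of a gene averaged, the ranges of C1qb, C8g and Cfb were 2.41-fold, 1.92-fold and 2.04-fold, and the r of C2 and Cfb was 0.44. No paired analysis was possible because all samples form 1 group. No detection calls were available to separate dim signals from background, which limits Cr2, C1qbp and the dim probe sets of C2 and C8g.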

Other observations

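Acute-phase genes, which hepatocytes turn up in inflammation, were also listed. Of 15 on the array, 15 were tested and 9 were called in the typical-variance test (60%, against 10.3% of all tested genes). Their summed signal was 170555 in liver 4, 137406 in liver 8 and 102145 in liver 7. Liver 4 was highest for 8 of the 15, against 17.7% of all tested genes. Livers 4 and 8 were the top pair for 7 of the 15, against 9.73%. Among these 7 were Saa3, Lcn2, Saa2 and Orm2, with ranges of 93.8-fold, 76.7-fold, 31.7-fold and 19.9-fold. The narrowest range of the 15 was 1.23-fold (Hp). Liver 3 stood ahead of livers 2, 6, 5 and 7 in the order of sums, which bright genes weigh most. One of these, Hp, was not called and was highest in liver 3 at 23596. Among the called genes, liver 3 was lowest for Saa2 (583), Saa3 (165.5) and Apcs (974). Livers 2, 4 or 5 were lowest for Saa4, Orm1, Orm2, Lcn2, Fga and Fgb. The Dixon test for a liver standing apart marked 0 of the 21 tested complement genes.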
